A study of Mus musculus with 24 samples.

Results

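The prostaglandin and leukotriene genes described here are 10 named members of the eicosanoid pathway, out of 55487 genes listed in the deposited table. They are the cyclooxygenases Ptgs1 and Ptgs2, the synthases Ptges, Tbxas1 and Hpgds, the inactivating enzyme Hpgd, the prostaglandin E2 receptors Ptger2 and Ptger4, and the 5-lipoxygenase pair Alox5 and Alox5ap. They were chosen by name from the pathway with earlier results of these data known, and all 10 were among the 17139 genes tested.

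RNA was sequenced from cells of the male mouse brain, 8 to 10 weeks of age, that magnetic beads against CD11b had captured, a surface protein of microglia and other myeloid cells. The mice were offspring of maternal immune activation (MIA) or control offspring, and every one received an intraperitoneal injection 18 h before the cells were taken. MIA or control offspring were given either lipopolysaccharide (LPS, a bacterial cell wall component, 4500 endotoxin units per gram of body weight) or saline, and striatum and frontal cortex were sampled, which makes 8 groups of 3 libraries. The third MIA striatum LPS library carries the mark "excluded" in its title and was set aside, which leaves 2 in that group and 23 in all. Strain, the agent given to the dams and the litter of each mouse are not given in the sources used here, nor is it stated whether libraries of a group came from separate animals. MIA and litter therefore cannot be told apart, and p-values measure the spread between these libraries, which may be technical.

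Eicosanoids are signalling lipids made from arachidonic acid. Cyclooxygenases turn arachidonate into prostaglandin H2, which terminal synthases convert into prostaglandins E2 and D2 or thromboxane A2, whereas 5-lipoxygenase, aided by its activating protein, starts the leukotrienes. In inflammation of many tissues the inducible cyclooxygenase Ptgs2 and the prostaglandin E synthase Ptges supply prostaglandin E2, which acts through receptors that include Ptger2 and Ptger4 until Hpgd oxidises it. In the brain, Ptgs1 is best known from microglia and Ptgs2 from neurons, endothelium and stimulated myeloid cells.

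The RefSeq promoters of Ptgs1, Ptgs2, Hpgd and Alox5 are printed because these members carry the contrasts below: the cyclooxygenase that was not called with LPS and the one that rose, the enzyme that fell and the lipoxygenase that rose. Each stretch is the 250 bases before the start that RefSeq gives on GRCm38.p6, 5′ to 3′ on the strand of the gene. They lie at chr2:36230176-36230425 (plus strand) for Ptgs1, chr1:150099781-150100030 (plus) for Ptgs2, chr8:56294302-56294551 (plus) for Hpgd and chr6:116461179-116461428 (minus) for Alox5. Capitals mark matches to the GC box GGGCGG and to the C/EBP core TTNNGNAA, each on either strand, 2 motifs that were chosen for display after the matches had been seen.
Ptgs1: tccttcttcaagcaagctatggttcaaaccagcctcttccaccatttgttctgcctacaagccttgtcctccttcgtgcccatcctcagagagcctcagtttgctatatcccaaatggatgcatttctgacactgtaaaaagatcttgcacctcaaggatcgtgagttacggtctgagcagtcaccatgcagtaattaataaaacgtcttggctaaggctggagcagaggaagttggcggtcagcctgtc
Ptgs2: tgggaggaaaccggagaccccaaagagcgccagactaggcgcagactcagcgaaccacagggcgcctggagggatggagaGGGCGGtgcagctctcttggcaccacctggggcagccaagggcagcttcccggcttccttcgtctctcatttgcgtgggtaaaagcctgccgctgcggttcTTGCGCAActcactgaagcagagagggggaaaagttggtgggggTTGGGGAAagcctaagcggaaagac
Hpgd: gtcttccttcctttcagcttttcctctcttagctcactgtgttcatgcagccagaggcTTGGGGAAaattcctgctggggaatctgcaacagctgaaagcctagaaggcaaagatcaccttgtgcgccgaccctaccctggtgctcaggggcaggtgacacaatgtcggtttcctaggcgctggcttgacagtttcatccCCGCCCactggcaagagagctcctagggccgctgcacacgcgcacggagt
Alox5: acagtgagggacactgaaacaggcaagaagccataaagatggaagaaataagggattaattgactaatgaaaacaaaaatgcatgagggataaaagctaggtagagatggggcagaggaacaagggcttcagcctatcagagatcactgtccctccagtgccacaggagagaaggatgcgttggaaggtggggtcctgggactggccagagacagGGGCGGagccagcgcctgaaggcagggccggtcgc
RefSeq promoters were matched by symbol for 9 of the 10 members, all but Alox5ap. In both strands of those 250 bases, the GC box was found in 5 of the 9 (Ptgs2, Ptges, Hpgd, Ptger4 and Alox5) and in 32.7% of 32851 mouse promoters. The C/EBP core was found in 5 of the 9 (Ptgs2, Ptges, Hpgd, Hpgds and Ptger2) and in 36.9% of all promoters. Ptgs2 held 2 such cores, of which TTGCGCAA reads as a match on both strands. Of 4 further motifs, the TATA box TATAAA was found in Tbxas1 alone (12.4% of all promoters). In these 250 bases no member held the kappaB consensus (3.90%), the CRE half-site CGTCA (17.8%) or the E-box CACGTG (6.02%). Bases after the RefSeq start or farther upstream were not searched, so a gene may hold these motifs there. Ptgs1 held none of the 6 motifs in this window, and matches of letters do not show that a factor binds.

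The libraries used held 19453272 to 29480464 counts, with 17723 to 20324 genes detected in each. The cells carried the microglial markers that the label names: a list of 11 microglial genes summed to 46205 to 62532 CPM (counts scaled to a common library total) in saline libraries, with none of the 11 at 0 in any library. After LPS the same list summed to 29349 to 40251 CPM, and P2ry12, the ADP receptor of surveying microglia, had a median of 1014 CPM over 11 LPS libraries, against 4948 CPM over 12 saline libraries. Il1b, an inflammatory cytokine gene, had a median of 933 CPM in LPS libraries and 109.9 CPM in saline libraries, with no overlap. Markers of other myeloid cells moved with LPS as well. A list of 12 neutrophil genes summed to 663 to 1177 CPM in LPS libraries, against 299 to 1017 CPM in saline libraries, and 8 monocyte genes summed to 153 to 387 CPM in LPS libraries and 36.2 to 175 CPM in saline libraries. Of 8 genes of border-associated macrophages, 4 rose with LPS in MIA striatum, where their sums did not overlap (867 to 1199 CPM after LPS and 333 to 498 CPM after saline), and 1 fell in each of the other 3 settings. In bulk samples fewer cells of a type and less RNA per cell cannot be told apart.

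LPS changed Ptgs2, Alox5 and Alox5ap upward and Hpgd downward in all 4 settings, Ptger4 upward in 3 and Hpgds and Tbxas1 downward in 3, and none of the members was called in any comparison between MIA and control offspring or between regions. At an adjusted p under 0.05, 4 of the 10 members rose and 2 fell with LPS in MIA striatum, where 10.2% of all genes tested were called, 6.93% higher and 3.31% lower. The counts of members were 3 higher and 2 lower in MIA cortex, where 11.9% of all genes were called, 7.05% higher and 4.85% lower. They were 4 higher and 3 lower in control striatum, where 20.9% of all genes were called, 12.7% higher and 8.15% lower. In control cortex 5 members were higher and 3 lower, and 18.2% of all genes were called, 10.9% higher and 7.25% lower. The median log2 fold change of the members was 1.06, 0.13, 1.05 and 1.11 in these 4 settings, and that of all genes tested was -0.06, 0.01, -0.02 and 0.04. All control cortex saline libraries of Ptger2 were at 0. The control cortex median of the members is the same at the fitted Ptger2 value and at the lower limit of its interval. Both lie above that median.

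**Figure D1:**
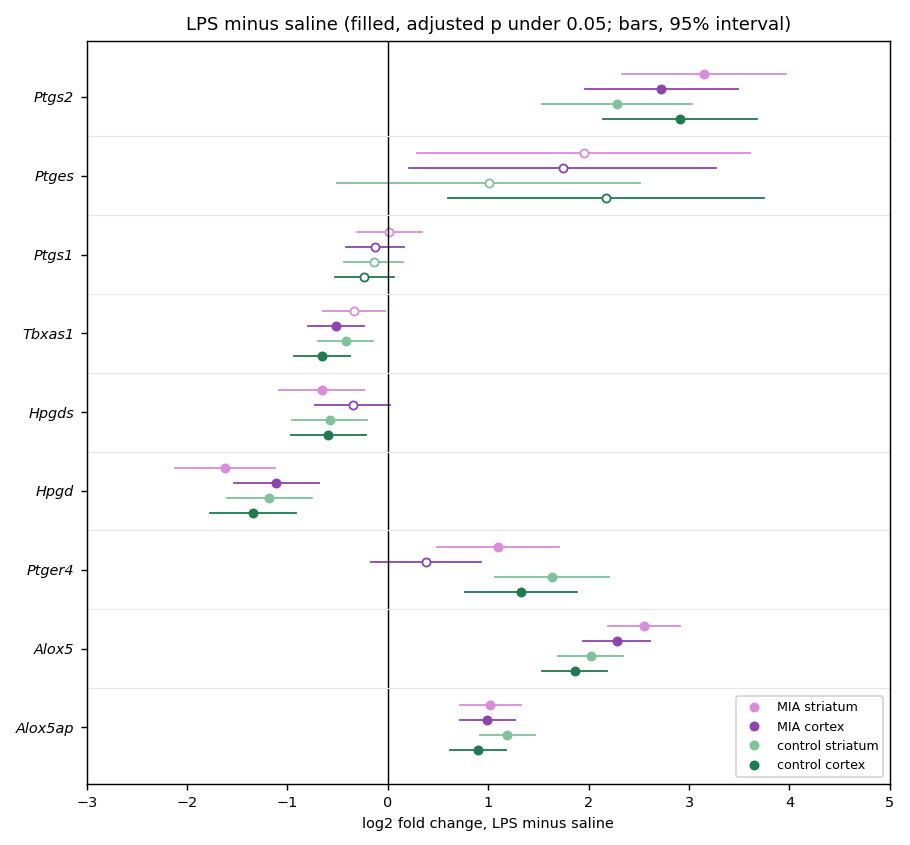
The effect of LPS on 9 members as a log2 fold change (LPS minus saline, x axis) in the 4 settings, with 95% intervals and filled points for an adjusted p under 0.05. Ptgs2 and Alox5 lie to the right of 0 and Hpgd to the left of 0 in all 4 settings, while the points of Ptgs1 lie between -0.23 and 0.02. Ptger2, whose control cortex saline libraries were all at 0, is left out.

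The 2 cyclooxygenases differed in their response. Ptgs2 (ENSMUSG00000032487.8), the inducible cyclooxygenase, had 177 and 233 CPM in MIA striatum LPS libraries, against 19.1, 23.3 and 26.9 CPM in MIA striatum saline libraries. In MIA cortex it had 221, 231 and 211 CPM after LPS and 26.0, 38.4 and 35.7 CPM after saline. Every LPS library of MIA offspring was thus several times above every saline library. Control striatum libraries gave 213, 81.1 and 196 CPM for Ptgs2 after LPS and 42.9, 31.2 and 26.8 CPM after saline. Control cortex libraries gave 207, 91.7 and 256 CPM after LPS and 21.2, 17.9 and 34.7 CPM after saline. Replicate 2 was the lowest LPS library in both regions of the control offspring, though still above each saline library. The log2 fold change of Ptgs2 was 3.15 ± 0.39 (SE, adjusted p = 1.7e-05) in MIA striatum, 2.73 ± 0.36 (3.3e-05) in MIA cortex, 2.28 ± 0.36 (0.00010) in control striatum and 2.91 ± 0.37 (1e-05) in control cortex.

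Ptgs1 (ENSMUSG00000047250.13), the cyclooxygenase that cells express without stimulation, was the most abundant of the 10 in CPM. It ranged from 870.0 to 1343 CPM over the 11 LPS libraries, with a median of 1058 CPM, against 974 to 1340.0 CPM over the 12 saline libraries, with a median of 1209 CPM. The 2 ranges overlapped over most of their length. Its log2 fold change with LPS was 0.02 (95% interval -0.31 to 0.34) in MIA striatum, -0.13 (-0.42 to 0.16) in MIA cortex, -0.14 (-0.44 to 0.15) in control striatum and -0.23 (-0.53 to 0.06) in control cortex. None of these passed the test, and no interval reached a change of 1 on the log2 scale.

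**Figure D2:**
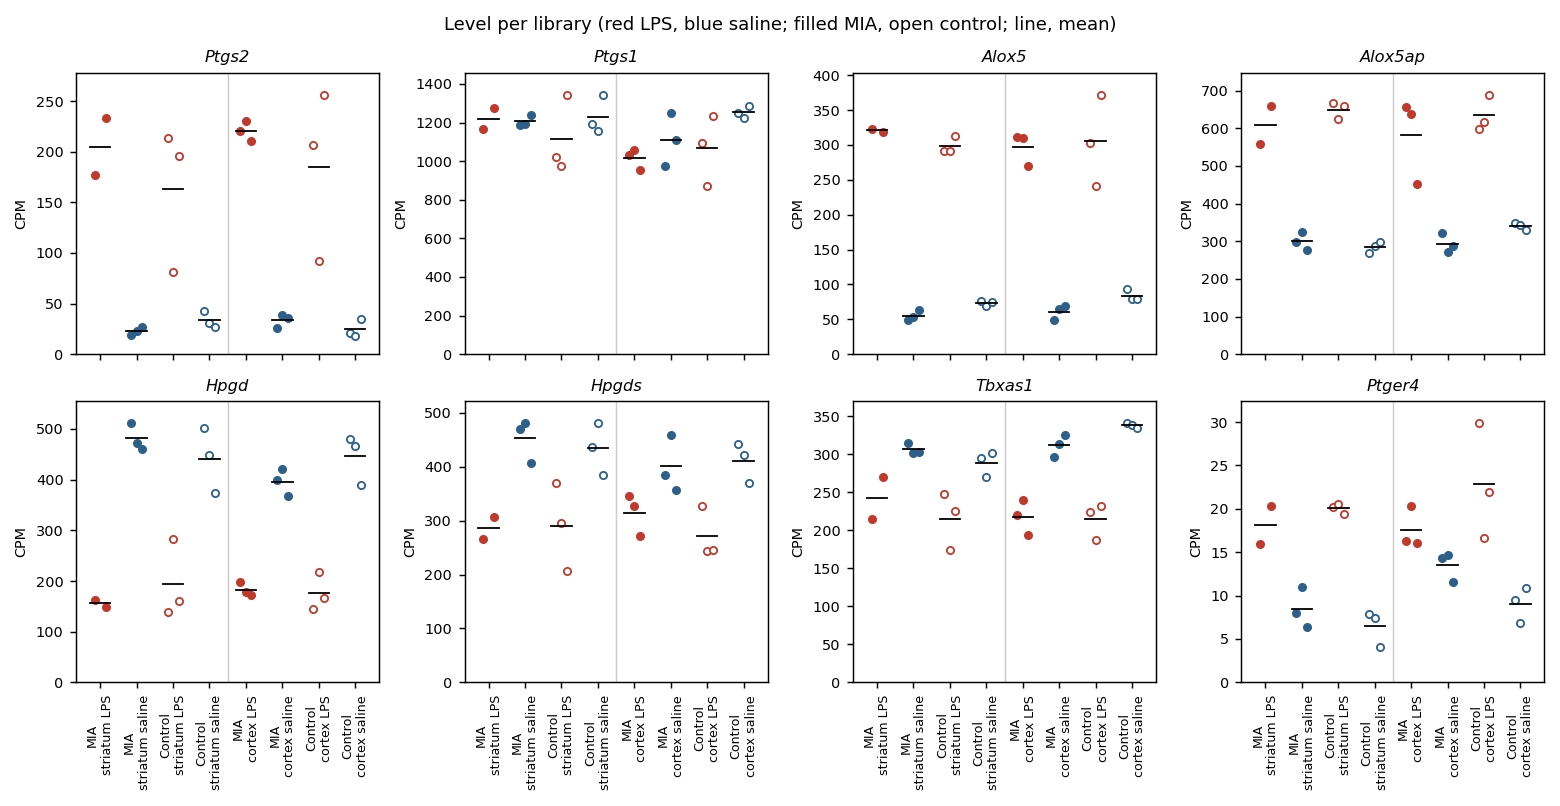
Level of 8 members in every library (CPM, y axis), by group (x axis), with LPS in red, saline in blue, MIA filled, control open and a line at the group mean. The 11 LPS libraries lie above the 12 saline libraries for Ptgs2, Ptger4, Alox5 and Alox5ap and below them for Hpgd, whereas the 2 treatments overlap for Ptgs1, Hpgds and Tbxas1.

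The 3 terminal synthases did not move together. Ptges (ENSMUSG00000050737.13), which makes prostaglandin E2, was weakly expressed. In MIA striatum it had 8.16 and 5.52 CPM after LPS and 1.15, 1.22 and 2.91 CPM after saline, and in MIA cortex 4.11, 6.99 and 11.7 CPM after LPS and 0.505, 3.04 and 3.26 CPM after saline. Control striatum libraries had 7.31, 4.39 and 5.21 CPM after LPS and 2.37, 3.06 and 2.98 CPM after saline. Control cortex libraries had 7.12, 8.90 and 4.06 CPM after LPS and 0.836, 0.101 and 3.51 CPM after saline. The lowest LPS library stood at 4.06 CPM and the highest saline library at 3.51 CPM, so the treatments did not overlap. Even so, Ptges passed the test in none of the 4 settings: the log2 fold changes were 1.95 ± 0.80 (adjusted p = 0.14) in MIA striatum, 1.74 ± 0.73 (0.15) in MIA cortex, 1.00 ± 0.72 (0.37) in control striatum and 2.17 ± 0.75 (0.051) in control cortex. The control cortex difference was called with DESeq2 (adjusted p = 0.018), with all genes kept (0.020), with a replicate block (0.018), without LPS replicate 3 (0.044) and without saline replicate 3, which raised it to 3.79 (0.0036). It was not called with RLE scaling, with the excluded library added or without any of the other 4 libraries of that comparison, with a lowest value of 1.63 (0.14) without saline replicate 2. The MIA cortex difference was 0.79 (adjusted p = 0.58) without LPS replicate 3 and saline replicate 1, both of which stand apart from their groups.

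Tbxas1 (ENSMUSG00000029925.13), thromboxane A synthase, ranged from 174 to 270.2 CPM over LPS libraries, with a median of 225 CPM, against 269.5 to 341 CPM over saline libraries, with a median of 308 CPM. The ranges met within 1 CPM. Tbxas1 fell in 3 settings, with log2 fold changes of -0.52 ± 0.13 in MIA cortex (SE, adjusted p = 0.013), -0.42 ± 0.13 in control striatum (0.028) and -0.66 ± 0.13 in control cortex (0.0013), and its value in MIA striatum was -0.34 ± 0.15 (0.19). The control striatum call was lost without LPS replicate 2 (-0.29, adjusted p = 0.14), saline replicate 1 (-0.40, 0.080) or saline replicate 3 (-0.39, 0.065) and with all genes kept (-0.45, 0.067), and the MIA cortex call was lost without saline replicate 3 (-0.44, 0.056).

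Hpgds (ENSMUSG00000029919.5), the haematopoietic prostaglandin D synthase, ranged from 207 to 369 CPM over LPS libraries, with a median of 295 CPM, against 357 to 481 CPM over saline libraries, with a median of 429 CPM. It fell in 3 settings, with log2 fold changes of -0.66 ± 0.20 in MIA striatum (SE, adjusted p = 0.043), -0.58 ± 0.18 in control striatum (0.025) and -0.59 ± 0.18 in control cortex (0.025), and its value in MIA cortex was -0.35 ± 0.18 (0.25). These 3 calls were near the threshold. Leaving out 1 library ended the call in MIA striatum for either LPS replicate and for saline replicates 1 and 2, and in each control region for LPS replicates 2 and 3 and saline replicates 1 and 2. The value without 1 of those libraries lay between -0.82 and -0.58 in MIA striatum, between -0.59 and -0.39 in control striatum and between -0.58 and -0.52 in control cortex.

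Hpgd (ENSMUSG00000031613.9), the 15-hydroxyprostaglandin dehydrogenase that inactivates prostaglandin E2, fell in all 4 settings. It had 163 and 149 CPM in MIA striatum LPS libraries, against 512, 473 and 459.8 CPM in MIA striatum saline libraries, and in MIA cortex 198, 178 and 173 CPM after LPS and 398, 421 and 368 CPM after saline. In control striatum it had 139, 283 and 161 CPM after LPS and 502, 448 and 374 CPM after saline, and in control cortex 144, 217 and 166 CPM after LPS and 481, 466 and 390.3 CPM after saline. No LPS library reached a saline library. In control offspring, replicate 2 was the highest LPS library in both regions, the replicate in which Ptgs2 was lowest. The log2 fold change was -1.62 ± 0.24 (SE, adjusted p = 0.00011) in MIA striatum, -1.11 ± 0.20 (0.00082) in MIA cortex, -1.18 ± 0.20 (0.00026) in control striatum and -1.34 ± 0.20 (7.9e-05) in control cortex. All 4 calls held without each library in turn and under the other fits tried.

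Of the 2 receptors that couple prostaglandin E2 to cyclic AMP, Ptger4 (ENSMUSG00000039942.15) was the more abundant. It had 16.0 and 20.3 CPM in MIA striatum LPS libraries, against 7.97, 10.97 and 6.40 CPM in MIA striatum saline libraries. In MIA cortex it had 16.3, 20.4 and 16.0 CPM after LPS and 14.3, 14.7 and 11.5 CPM after saline, the narrowest gap of the 4. Control striatum libraries had 20.2, 20.5 and 19.4 CPM after LPS and 7.93, 7.41 and 4.09 CPM after saline. Control cortex libraries had 29.9, 16.6 and 22.0 CPM after LPS and 9.45, 6.90 and 10.9 CPM after saline. The groups did not overlap in any setting. Ptger4 rose by 1.10 ± 0.29 on the log2 scale in MIA striatum (SE, adjusted p = 0.017), by 1.63 ± 0.27 in control striatum (0.00018) and by 1.33 ± 0.27 in control cortex (0.0013), and its value in MIA cortex was 0.38 ± 0.26 (0.44). The MIA striatum call was lost without LPS replicate 2 (0.87, adjusted p = 0.24), saline replicate 1 (1.06, 0.063) or saline replicate 3 (0.88, 0.090).

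Ptger2 (ENSMUSG00000037759.6) was at the limit of detection. Control cortex LPS libraries held 11, 39 and 27 counts and control cortex saline libraries 0, 0 and 0. In control cortex the pooled LPS level of Ptger2 was 24.5-fold above a floor of 3 counts over the saline group. That ratio leaves out the spread between the LPS libraries and is not a lower bound. The fitted log2 fold change was 7.74 ± 2.24 (interval 3.03 to 12.4, adjusted p = 0.021), which depends on the model's handling of 0. Without saline replicate 1, 2 or 3 the adjusted p was 0.067, 0.064 or 0.066. The 3 other settings gave 6 and 9 counts after LPS and 0, 1 and 4 after saline in MIA striatum, 0, 6 and 14 after LPS and 0, 1 and 34 after saline in MIA cortex, and 13, 15 and 15 after LPS and 0, 19 and 3 after saline in control striatum. The treatments overlapped in MIA cortex and in control striatum, and the test called none of the 3 (adjusted p = 0.51, 0.87 and 0.66). At these counts a difference in Ptger2 was not detectable outside control cortex.

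**Figure D3:**
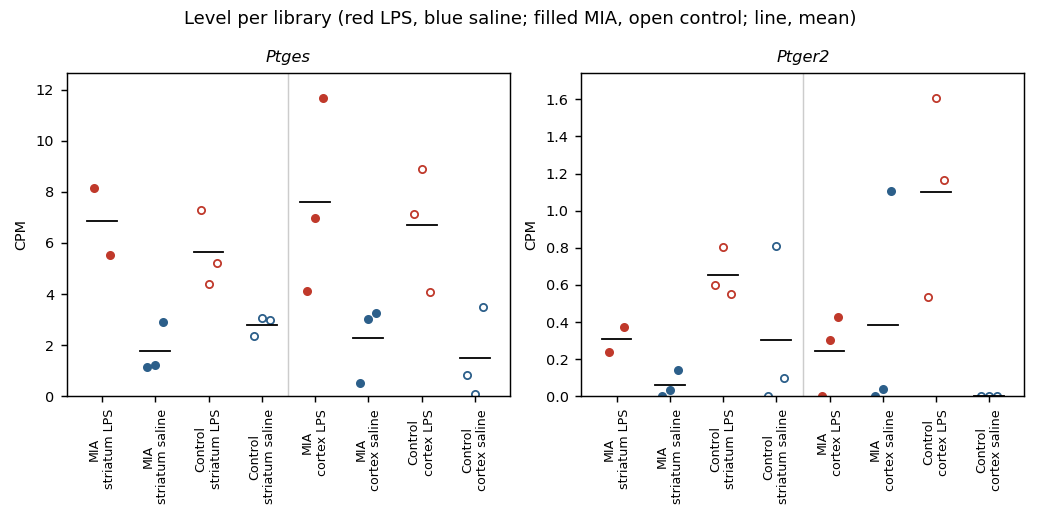
Level of the 2 weakly expressed members Ptges and Ptger2 in every library (CPM, y axis), by group (x axis), with LPS in red, saline in blue, MIA filled, control open and a line at the group mean. All 11 LPS libraries lie at or above 4.06 CPM for Ptges and all 12 saline libraries at or below 3.51 CPM, while Ptger2 lies under 2 CPM throughout and at 0 in all 3 control cortex saline libraries.

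Alox5 (ENSMUSG00000025701.12), the 5-lipoxygenase that starts leukotriene synthesis, rose in all 4 settings with the smallest adjusted p-values of the 10 members. It had 323 and 319 CPM in MIA striatum LPS libraries, against 48.8, 52.8 and 62.7 CPM in MIA striatum saline libraries. In MIA cortex it had 311, 309.7 and 269.8 CPM after LPS and 49.4, 64.6 and 69.5 CPM after saline. Control striatum libraries had 292, 292 and 313 CPM after LPS and 76.9, 69.3 and 75.1 CPM after saline. Alox5 in control cortex stood at 303, 242 and 372 CPM after LPS and at 93.6, 79.5 and 79.3 CPM after saline. The LPS groups averaged 297 to 321 CPM, and in each region the saline libraries of MIA offspring lay below those of control offspring. The log2 fold change was 2.55 ± 0.17 (SE, adjusted p = 1.1e-08) in MIA striatum, 2.28 ± 0.16 (1.1e-08) in MIA cortex, 2.02 ± 0.16 (2.8e-08) in control striatum and 1.86 ± 0.16 (7.1e-08) in control cortex.

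Alox5ap (ENSMUSG00000060063.9), the membrane protein that presents arachidonate to 5-lipoxygenase, rose in all 4 settings as well. It had 558 and 659 CPM after LPS and 298, 324 and 277 CPM after saline in MIA striatum, and 656, 639 and 453 CPM after LPS and 321, 270.1 and 287 CPM after saline in MIA cortex. In control striatum it had 666, 624 and 658 CPM after LPS and 269, 286 and 298 CPM after saline, and in control cortex 598, 617 and 689 CPM after LPS and 349.6, 343 and 329 CPM after saline. No saline library reached an LPS library, and the lowest LPS library was MIA cortex replicate 3. That library had the highest neuronal, oligodendrocyte, endothelial, pericyte and astrocyte marker sums of its group (219, 1571, 1279, 444 and 882 CPM). It also had the lowest microglial, border-associated macrophage and neutrophil sums of its group, though the highest monocyte sum. The log2 fold change of Alox5ap was 1.02 ± 0.14 (SE, adjusted p = 7.3e-05) in MIA striatum, 0.99 ± 0.13 (3.2e-05) in MIA cortex, 1.19 ± 0.13 (2.1e-06) in control striatum and 0.90 ± 0.13 (5.4e-05) in control cortex.

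Neutrophils and monocytes also express Alox5, Alox5ap and Ptgs2, and their markers were measured in the same libraries. Of 12 neutrophil genes, 7 rose with LPS in MIA striatum, 2 rose and 2 fell in MIA cortex, 9 rose in control striatum and 7 rose in control cortex. Summed neutrophil levels did not overlap between treatments in MIA striatum (722 to 983 CPM after LPS and 299 to 370.1 CPM after saline), control striatum (774 to 1036 CPM after LPS and 303 to 342 CPM after saline) or control cortex (1009 to 1177 CPM after LPS and 411 to 659 CPM after saline). In MIA cortex they stood at 756, 981 and 663 CPM after LPS and at 1017, 556 and 596 CPM after saline. The overlap there rests on saline replicate 1 alone, since the other saline libraries lay below each LPS library. Ly6g, a defining neutrophil gene, was at 0 in 0 of 11 LPS libraries and 6 of 12 saline libraries, with a median of 1.98 CPM in LPS libraries and 0.0711 CPM in saline libraries. Only Camp and Ltf of the list had lower medians in LPS libraries (1.42 and 8.69 CPM) than in saline libraries (3.15 and 12.3 CPM). Csf3r was the most abundant gene of the list (median 388 CPM after LPS and 313 CPM after saline) and weighs most in the sums. Of 8 monocyte genes, 5 rose in each setting but MIA cortex, where 3 did. The part of these cells and of border-associated macrophages in the rises of Ptgs2, Ptger4, Alox5 and Alox5ap was not tested.

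Endothelial, pericyte, neuronal and oligodendrocyte markers were lower in LPS than in saline libraries of control striatum. Of 7 astrocyte genes, 1 was higher and 1 lower there. There 5 of 10 endothelial, 4 of 6 pericyte, 2 of 10 neuronal and 2 of 7 oligodendrocyte genes fell, with list medians of -1.13, -1.23, -1.78 and -0.74 on the log2 scale. Endothelial sums were 572 to 899 CPM after LPS and 859 to 2028 CPM after saline, and neuronal sums 26.9 to 41.3 CPM after LPS and 68.1 to 147 CPM after saline. In the other 3 settings at most 1 gene of each of these lists was called in either direction. The control striatum saline libraries also stood above control cortex saline libraries, with 2 endothelial, 2 pericyte, 2 neuronal and 2 oligodendrocyte genes called higher. Oligodendrocyte sums were 1307 to 5510 CPM in control striatum saline, 274 to 468 CPM in control cortex saline and 479 to 1080 CPM in control striatum LPS libraries. The part of these cells in the control striatum results was not tested.

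Of 11 microglial genes, 7 fell with LPS in MIA striatum, 8 in MIA cortex, 7 in control striatum and 9 in control cortex, in the same libraries in which Hpgd, Hpgds and Tbxas1 were lower. Whether the falls of these 3 genes follow the microglial markers was not tested. Hpgds and Alox5 are also known from mast cells, and Ptgs1 and Tbxas1 from platelets. The 9 mast cell and basophil genes summed to 7.56 to 24.1 CPM in LPS libraries and 1.22 to 8.48 CPM in saline libraries, and 1 of the 3 that were tested rose, in control cortex. Hdc, histidine decarboxylase, was at 0 in no library, with a median of 12.3 CPM in LPS libraries and 2.16 CPM in saline libraries, and Kit was at 0 in 0 of 11 LPS libraries and 1 of 12 saline libraries. The defining mast cell protease genes Tpsb2 and Mcpt4 were at 0 in all 23 libraries, and Fcer1a in 11 of 11 LPS libraries and 10 of 12 saline libraries. The 8 platelet genes summed to 6.29 to 14.7 CPM in LPS libraries and 26.5 to 50.3 CPM in saline libraries, and 1 of the 5 tested fell in each of the 4 settings. Gp9 had a median of 9.53 CPM in LPS libraries and 31.8 CPM in saline libraries, whereas Gp6 was at 0 in 10 of 11 LPS libraries and 11 of 12 saline libraries. The part of either cell type in the results for Hpgds, Alox5, Ptgs1 and Tbxas1 was not tested.

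Set per kilobase of exon (GENCODE vM21 basic transcripts, which may not be the annotation the authors used), Ptgs1 led the 10 members in control cortex saline libraries with 437 ± 10.2 CPM per kb (SD, n = 3). Hpgd (265 ± 28.8) and Alox5ap (253 ± 7.88) followed and overlapped each other, then Hpgds (118 ± 10.8) and Tbxas1 (109 ± 1.19), which overlapped too. Alox5 (29.8 ± 2.91), Ptgs2 (5.52 ± 2.00), Ptger4 (2.73 ± 0.609) and Ptges (0.406 ± 0.492) came after them without overlap. After LPS in control cortex, Alox5ap (471 ± 35.7 CPM per kb) came above Ptgs1 (372 ± 63.9), with no overlap of their libraries. Alox5 (108 ± 23.1), Hpgd (104 ± 22.2), Hpgds (78.3 ± 13.6) and Tbxas1 (69.2 ± 7.79) followed, each overlapping its neighbour in this order. Ptgs2 reached 41.5 ± 18.96 CPM per kb after LPS, ahead of Ptger4 (6.86 ± 2.00), Ptges (1.84 ± 0.671) and Ptger2 (0.299 ± 0.147). In all 8 groups Ptgs2, Ptger4, Ptges and Ptger2 held ranks 7 to 10 in that order. In the LPS groups other than control cortex, Alox5ap also averaged above Ptgs1, but the libraries of the 2 genes overlapped.

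MIA offspring were set against control offspring in each region and treatment, to ask whether prenatal history had changed these genes at rest or after LPS. No member was called in any of the 4 comparisons, by edgeR or by DESeq2. Over all genes tested, edgeR called 25 genes (0.146%) in striatum after LPS, and 0 genes in striatum after saline, in cortex after LPS and in cortex after saline, where 842, 837 and 921 genes had an unadjusted p under 0.05 and DESeq2 called 1, 58 and 2. In striatum after LPS, 1556 genes had an unadjusted p under 0.05 and DESeq2 called 242. Of the members, 0 had an unadjusted p under 0.05 after LPS in either region, 1 after saline in striatum and 3 after saline in cortex.

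Those that did were Alox5 in both regions, and Ptger4 and Ptger2 in cortex. Alox5 averaged 54.8 ± 7.20 CPM in MIA striatum saline and 73.7 ± 3.94 CPM in control striatum saline (SD, n = 3 each), a log2 difference of -0.43 (95% interval -0.75 to -0.11, unadjusted p = 0.011, adjusted p = 0.92). In cortex after saline it averaged 61.2 ± 10.5 CPM in MIA and 84.1 ± 8.20 CPM in control offspring, a difference of -0.46 (-0.78 to -0.14, unadjusted p = 0.0068, adjusted p = 0.91). The 3 MIA libraries lay below the 3 control libraries in each region, but neither difference passed over all genes. After LPS the Alox5 difference was 0.10 (-0.25 to 0.45) in striatum and -0.04 (-0.36 to 0.27) in cortex.

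Ptger4 averaged 13.5 ± 1.72 CPM in MIA cortex saline and 9.08 ± 2.03 CPM in control cortex saline, a log2 difference of 0.57 (95% interval 0.02 to 1.13, unadjusted p = 0.044, adjusted p = 0.92). The 3 MIA libraries lay above the 3 control libraries. The Ptger4 difference was 0.39 (-0.17 to 0.95) in striatum after saline, -0.15 (-0.76 to 0.47) in striatum after LPS and -0.38 (-0.92 to 0.17) in cortex after LPS. For Ptger2 in cortex after saline, 1 MIA library held 34 counts, another 1 and the third 0, against 0 in each control library. For Ptgs2 the difference between MIA and control was 0.33 (-0.46 to 1.12) in striatum and 0.26 (-0.46 to 0.97) in cortex after LPS, so these data do not bound it within a doubling in striatum. After saline the Ptgs2 difference was -0.54 (-1.26 to 0.18) in striatum and 0.44 (-0.28 to 1.16) in cortex, and neither interval stays within a change of 1 on the log2 scale. Over the 4 comparisons the log2 differences ran from -0.18 to 0.13 for Ptgs1, from -0.32 to 0.13 for Hpgd, from -0.04 to 0.21 for Hpgds, from -0.11 to 0.17 for Tbxas1, from -0.22 to 0.08 for Alox5ap and from -0.67 to 0.61 for Ptges. The other 3 fitted differences of Ptger2 ran from -2.20 to -1.07, on at most 39 counts in a library.

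**Figure D4:**
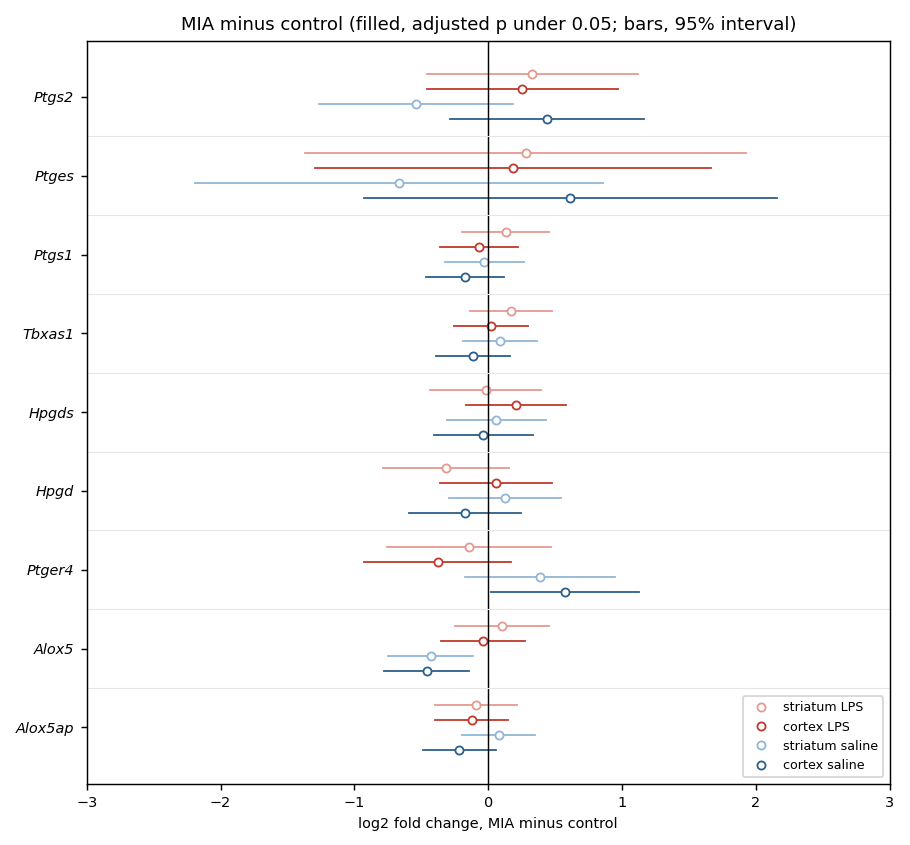
The difference between MIA and control offspring as a log2 fold change (MIA minus control, x axis) for 9 members in each region and treatment, with 95% intervals. All points are open, since none passed an adjusted p of 0.05, and the intervals of Alox5 in saline libraries lie to the left of 0 in both regions.

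Whether LPS acted differently in MIA and control offspring was tested as an interaction, and no member was called in either region, by edgeR or DESeq2. Over all genes edgeR called 0 in both regions, with 1323 genes in striatum and 744 in cortex at an unadjusted p under 0.05, and DESeq2 called 37 and 1. The LPS effect on Alox5 differed by 0.53 (95% interval 0.06 to 1.00, unadjusted p = 0.029, adjusted p = 0.63) in striatum and by 0.42 (-0.03 to 0.86, unadjusted p = 0.065) in cortex, as MIA minus control. That on Ptger4 differed by -0.53 (-1.36 to 0.30, unadjusted p = 0.20) in striatum and by -0.95 (-1.73 to -0.17, unadjusted p = 0.019, adjusted p = 1.0) in cortex, where its LPS call was missing in MIA offspring. The interaction of Ptger2 in cortex had an unadjusted p of 0.0059 and an adjusted p of 1.0. All 3 control saline libraries, MIA LPS replicate 1 and MIA saline replicate 1 of that comparison were at 0. The Ptgs2 response differed by 0.87 (-0.20 to 1.94) in striatum and by -0.18 (-1.20 to 0.83) in cortex. In striatum and cortex the values were 0.16 and 0.10 for Ptgs1, -0.44 and 0.23 for Hpgd, -0.08 and 0.24 for Hpgds, 0.08 and 0.14 for Tbxas1, -0.17 and 0.09 for Alox5ap and 0.95 and -0.43 for Ptges, and that of Ptger2 in striatum was 1.13.

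Striatum was compared with cortex within each prenatal and treatment group, and no member was called in any of these 4 comparisons, by edgeR or DESeq2. edgeR called 0.0117% of all genes in MIA offspring after LPS, 0.0817% in MIA after saline, 0.0175% in control after LPS and 0.502% in control after saline. The members' differences were small for the abundant genes: over the 4 groups they ran from -0.03 to 0.26 for Ptgs1, from -0.13 to 0.18 for Hpgds and from -0.23 to 0.28 for Hpgd on the log2 scale. They ran from -0.23 to 0.15 for Tbxas1, from -0.19 to 0.11 for Alox5 and from -0.26 to 0.06 for Alox5ap, and more widely for Ptgs2 (-0.53 to 0.45), Ptges (-0.36 to 0.92) and Ptger4 (-0.68 to 0.04). Ptger2 held 0, 19 and 3 counts in control striatum saline and 0, 0 and 0 in control cortex saline (unadjusted p = 0.017, adjusted p = 0.27), and its fitted differences in the other groups ran from -2.56 to 0.30. Ptger4 averaged 8.44 ± 2.33 CPM in MIA striatum saline and 13.5 ± 1.72 CPM in MIA cortex saline, a difference of -0.68 (95% interval -1.23 to -0.12, unadjusted p = 0.019, adjusted p = 0.87). Nor did the LPS response of any member differ between regions at an adjusted p under 0.05, with 0 genes called by edgeR over the whole table in MIA and in control offspring, 478 and 946 genes at an unadjusted p under 0.05, and 6 and 10 genes called by DESeq2. As striatum minus cortex, in MIA and in control offspring, the LPS response differed by 0.14 and 0.09 for Ptgs1, by 0.42 and -0.63 for Ptgs2, by 0.21 and -1.16 for Ptges, by 0.18 and 0.23 for Tbxas1 and by -0.31 and 0.01 for Hpgds. It differed by -0.51 and 0.16 for Hpgd, by 0.72 and 0.31 for Ptger4, by 0.27 and 0.16 for Alox5 and by 0.03 and 0.29 for Alox5ap. For Ptger2 the unadjusted p was 0.21 in MIA and 0.022 in control offspring (adjusted p = 1.0 and 0.80).

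The prostaglandin E2 receptor Ptger3 (ENSMUSG00000040016.16), which is not a member and couples to inhibition of cyclic AMP, was called between regions after saline and also with LPS. It averaged 4.89 ± 0.453 CPM in MIA striatum saline and 17.9 ± 2.55 CPM in MIA cortex saline (log2 difference -1.87 ± 0.26, adjusted p = 0.0030), and 5.84 ± 0.750 CPM in control striatum saline and 19.7 ± 0.351 CPM in control cortex saline (-1.75 ± 0.26, adjusted p = 0.0085). After LPS it was not called between regions in MIA or in control offspring. Its means after LPS were 1.78 ± 0.624 CPM in MIA striatum, 3.78 ± 0.336 CPM in MIA cortex, 1.04 ± 0.396 CPM in control striatum and 1.97 ± 0.288 CPM in control cortex. With LPS it fell, with log2 fold changes of -1.46 ± 0.30 in MIA striatum, -2.25 ± 0.26 in MIA cortex, -2.47 ± 0.28 in control striatum and -3.32 ± 0.28 in control cortex (adjusted p = 0.0029, 7.5e-06, 2.2e-06 and 6.4e-08). Ptger4 was higher with LPS in the settings in which it was called, and Ptger3 was lower with LPS in all 4. After saline both receptors had lower values in striatum than in cortex, of which those of Ptger4 were not called, and no test compared the receptors with each other.

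Around the 10 members, 78 other genes of the pathway were listed by role, of which 63 were tested. With LPS, 8 rose and 6 fell in MIA striatum, 6 rose and 8 fell in MIA cortex, 11 rose and 7 fell in control striatum, and 11 rose and 9 fell in control cortex. Over all genes tested, 10.2% were called in MIA striatum, 11.9% in MIA cortex, 20.9% in control striatum and 18.2% in control cortex. Whether the pathway genes were called more often than all genes was not tested. In the same order, the median log2 fold changes of the 63 pathway genes were 0.19, -0.17, 0.02 and 0.07. Those of all genes tested were -0.06, 0.01, -0.02 and 0.04. No other gene of the pathway was called in a comparison of MIA with control offspring or in the interaction.

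Among 17 genes of arachidonate release that were tested, Pla2g4a, the cytosolic phospholipase that frees arachidonate from membranes, rose in all 4 settings. It averaged 135 ± 9.08 CPM after LPS and 72.3 ± 5.86 CPM after saline in MIA striatum, and 154 ± 23.8 CPM after LPS and 81.9 ± 8.87 CPM after saline in control cortex, with log2 fold changes of 0.90 ± 0.19 (adjusted p = 0.0034) and 0.91 ± 0.18 (0.00082). Pla2g2d, a secreted phospholipase, fell in all 4 settings, with log2 fold changes of -5.04 to -3.71. Its group means were 3.08 to 11.3 CPM after saline and 0.163 to 0.497 CPM after LPS, so these fold changes rest on values near 0. Mgll, the lipase that yields arachidonate from the endocannabinoid 2-arachidonoylglycerol, and Abhd6, a further hydrolase of that lipid, fell in all 4 settings too (-1.44 to -0.96 for Mgll and -0.76 to -0.52 for Abhd6). The rise of the phospholipase thus stood beside falls in both lipases.

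Of 8 further prostanoid synthesis genes, Cbr1, a carbonyl reductase able to act on prostaglandin E2, fell in all 4 settings (-0.79 to -0.64 on the log2 scale). Ptges3, the cytosolic prostaglandin E synthase that is also a co-chaperone, rose in MIA cortex (0.55 ± 0.16), control striatum (0.84 ± 0.16) and control cortex (0.64 ± 0.16), and its value in MIA striatum was 0.22 ± 0.17 (adjusted p = 0.52). Mgst1, a microsomal glutathione transferase, rose in control striatum (1.11 ± 0.36) and control cortex (1.25 ± 0.37), with values of 0.20 ± 0.40 in MIA striatum and 0.19 ± 0.36 in MIA cortex. In the leukotriene branch, Dpep2, a dipeptidase that acts on leukotriene D4, rose in MIA striatum, control striatum and control cortex by 2.85 to 3.54. Its saline means in those settings were 0.347 to 0.608 CPM, and its MIA striatum LPS libraries ranged from 2.06 to 7.98 CPM. Ggt1, which forms leukotriene D4, rose in control cortex (2.73 ± 0.91, adjusted p = 0.041), on group means under 2 CPM. Its values were 0.24 ± 0.91 in MIA striatum, 1.05 ± 0.83 in MIA cortex and 0.34 ± 0.81 in control striatum.

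Of 13 inactivation and transport genes, Cyp4f18, which hydroxylates leukotriene B4 in the mouse, rose in all 4 settings. It averaged 32.3 ± 1.96 CPM after LPS and 1.92 ± 0.0939 CPM after saline in MIA striatum (log2 fold change 4.07 ± 0.31, adjusted p = 3.3e-08). Its fold changes were 2.51 ± 0.28 in MIA cortex, 4.01 ± 0.30 in control striatum and 3.71 ± 0.30 in control cortex. Cyp4f16, of the same cytochrome family, rose by 2.37 to 3.13, and Ephx1, the microsomal epoxide hydrolase, fell in all 4 (-1.40 to -1.20). Ptgr2, a prostaglandin reductase, fell in control cortex (-0.61 ± 0.14, adjusted p = 0.0039), with values of -0.30 to -0.26 in the other settings. Inactivating genes therefore moved in both directions, down for Hpgd and up for Cyp4f18 and Cyp4f16.

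Of 14 other receptors tested, Ptger3 fell in all 4 settings. Gpr31b, the mouse counterpart of the human receptor for the lipoxygenase product 12-HETE, rose in all 4 by 4.00 to 5.98 on the log2 scale, and its saline groups averaged at most 0.290 CPM. Fpr2, a formyl peptide receptor that also binds lipoxin A4, rose in MIA striatum (5.32 ± 1.07), control striatum (6.18 ± 1.11) and control cortex (4.41 ± 0.94), and its value in MIA cortex was 2.56 ± 0.87 (adjusted p = 0.061). The saline groups of Fpr2 averaged at most 0.913 CPM. Ltb4r1, the high-affinity leukotriene B4 receptor, rose in control striatum (1.75 ± 0.40, adjusted p = 0.0032) and control cortex (1.20 ± 0.39, 0.037), with values of 1.28 ± 0.42 (0.060) in MIA striatum and 0.00 ± 0.38 in MIA cortex. Fpr2, Ltb4r1 and Cyp4f18 are also genes of neutrophils, whose markers moved with LPS as given above, and their part in these rises was not tested.

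**Figure D5:**
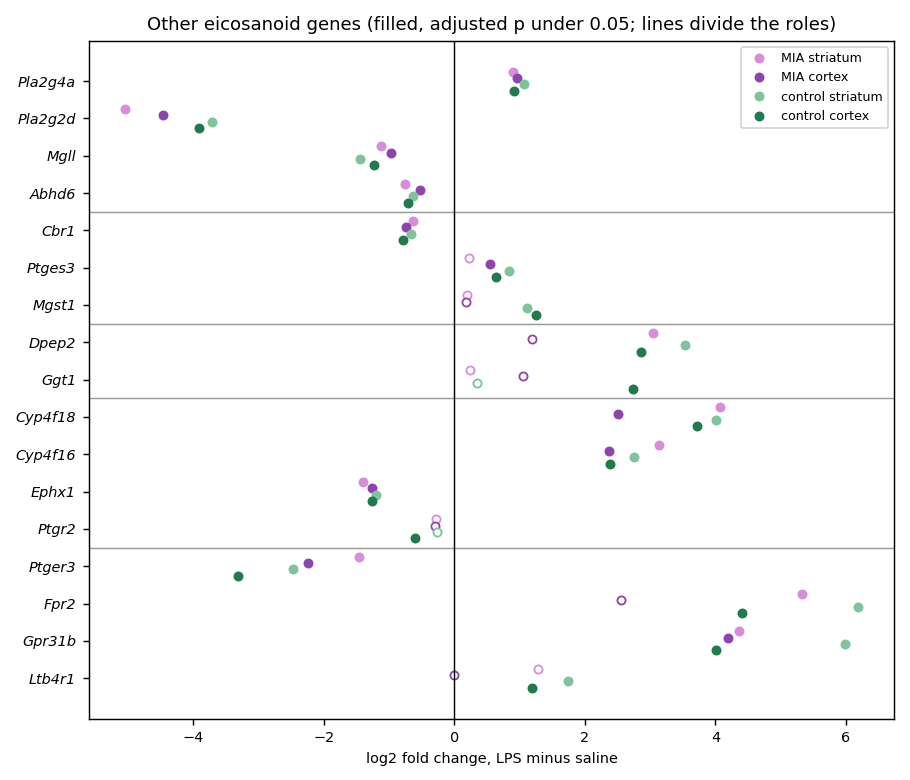
The effect of LPS on 17 other genes of the eicosanoid pathway as a log2 fold change (LPS minus saline, x axis) in the 4 settings, filled for an adjusted p under 0.05, with lines between the roles (arachidonate release, prostanoid synthesis, leukotriene enzymes, inactivation, receptors). Cyp4f18 and Cyp4f16 lie between 2.37 and 4.07 and Pla2g2d between -5.04 and -3.71.

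The genes whose log2 CPM ran most like that of a member were found by Pearson's r over the 23 libraries, leaving out genes whose mean lay under 10 CPM. All libraries share the split into LPS and saline, so genes that respond to LPS correlate with each other, and r is given as a description. Alox5 ran most like Ripor2 (r = 0.99), Cd300lf (0.99) and B4galnt1 (0.98). Alox5ap ran most like Ms4a6c, Ctsh and Eif3l (0.98 each). Ptgs2 ran most like the surface glycoprotein gene Cd34 (0.97), Pctp (0.97) and Ecm1 (0.96).

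Among the members that were lower with LPS, Hpgd ran most like the selenium transport gene Selenop (r = 0.96), Rgs10 (0.96) and Oxct1 (0.95), Tbxas1 like Tmem106c (0.96), Fgd2 (0.95) and Git2 (0.95), and Hpgds like Dynlt3 (0.92), Paip2 (0.91) and Cask (0.91). Ptger4 ran most like the adhesion receptor gene Cd44 (0.92), Bcl2a1d (0.91) and Ehd1 (0.90), and Bcl2a1d shares reads with near-identical copies. The likeness was lower for Ptges (Ezr, Xdh and Anxa2, 0.86 to 0.87), Ptgs1 (Tnfrsf21, Slc29a1 and Slco2b1, 0.82 to 0.83) and Ptger2 (Marcksl1, Dph2 and Dck, 0.76 to 0.77). No member was among the 3 genes most like another member.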

How the data were processed

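Adult mouse CD11b-captured cells were sequenced in 24 libraries made with a Smart-Seq2 protocol. A table of 1 expected count per gene and library was deposited, and per the submitters' processing notes the authors aligned with STAR, counted with RSEM and used DESeq2, with versions and genome build not given in the sources used here. Of all values 6.92% were not whole, and all were rounded. Identifiers were matched to symbols (55141 of 55487), and RSEM divides reads among near-identical genes.

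Tests used R 4.3.3 and edgeR 4.0.16: filterByExpr (count minimum 10, total minimum 15) kept 17139 genes, TMM gave the library sizes, and 1 coefficient per group was estimated by quasi-likelihood from 23 libraries (15 residual degrees of freedom). From it came 16 two-sided comparisons, adjusted by Benjamini and Hochberg over all genes in each and called under 0.05, with SE and 95% intervals from the F statistic. CPM are TMM-scaled expected counts, averaged as mean ± SD. log2 CPM for the likeness of genes had a prior count of 2 (0.5 as an alternative). The self-test ran on simulated counts, and no 2 libraries of a group agreed within sampling noise.

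The members and gene lists were chosen with earlier results of these data known. All members are named in each comparison. Of the other pathway genes, up to 4 per role with the smallest adjusted p over the LPS comparisons are named, plus any called for MIA. Same-numbered libraries met the pairing criterion (each correlation of deviations over 0.1) for LPS against saline in MIA cortex (0.143, 0.124 and 0.315) and for striatum against cortex in control LPS (0.275, 0.276 and 0.314). MIA against control in striatum after LPS met it too (0.151 and 0.142), although MIA and control offspring are different mice. The labels tie no numbers to animals. Alternatives were RLE scaling, no filter, DESeq2 1.42.0, a replicate block, the set-aside library added, and each library left out.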

Additional observations from a re-analysis of the deposited data

Results flagged for a closer look

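MIA striatum LPS replicate 3, the library that its title marks as excluded and that entered none of the tests (27358934 counts), was above every MIA striatum saline library in 5 members. It was below every one of them in Ptgs1, Hpgd, Hpgds and Tbxas1. The share of all genes that lay above or below was not measured. Alox5 stood at 329.8 CPM and Alox5ap at 684 CPM, against 318 to 323 CPM and 557 to 658 CPM in the MIA striatum LPS libraries that were used, and 48.7 to 62.6 CPM and 277 to 324 CPM in MIA striatum saline libraries. Both genes were thus above the 2 MIA striatum LPS libraries that were used.

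Ptgs2 stood at 46.5 CPM in the same library, against 176 and 233 CPM in the LPS libraries used and 19.1 to 26.8 CPM in saline libraries, so that it lay between the treatments. Ptges stood at 13.2 CPM, above the LPS libraries used (5.51 and 8.14 CPM) and the saline libraries (1.15 to 2.91 CPM). Ptger2 stood at 0.186 CPM, or 5 counts, against 6 and 9 counts in the LPS libraries used and 0, 1 and 4 counts in saline libraries. Ptger4 stood at 6.71 CPM, within the range of the saline libraries (6.39 to 10.96 CPM). Hpgd (252 CPM), Hpgds (371 CPM) and Tbxas1 (277 CPM) lay between the treatments. The LPS libraries used had 149 to 162, 266 to 306 and 215 to 270 CPM for these genes. The saline libraries had 459 to 511, 405 to 480 and 301 to 315 CPM. Ptgs1 (1071 CPM) lay below the LPS libraries used (1160 to 1271 CPM) and the saline libraries (1184 to 1237 CPM). In this single library the members therefore do not sit at 1 common place between the treatments.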

How the results depend on the processing

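Of 2057 member estimates recomputed under 30 settings, 1900 kept direction and side of the threshold, 126 estimates that were not called changed sign, 25 calls were lost, 6 were gained and no call reversed. The calls of Ptgs2, Hpgd, Alox5 and Alox5ap held in every setting, and those lost were of Hpgds, Tbxas1, Ptger4 and Ptger2, mostly without 1 library. Members called numbered 4 to 6 in MIA striatum, 4 to 5 in MIA cortex, 5 to 7 in control striatum and 6 to 9 in control cortex, and 0 in every setting of the 12 other comparisons. With the set-aside library added, in MIA striatum Ptger4 (0.76, adjusted p = 0.15) and Hpgds (-0.52, 0.074) were not called and Ptges was (2.34, 0.043). The replicate block changed 1 member call, that of Ptges in control cortex (2.54, adjusted p = 0.018), where the numbers did not meet the pairing criterion. Leaving out the 2 MIA cortex libraries that stand apart was chosen after seeing the data and changed no member call.

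Over all genes, LPS calls in MIA striatum were 1755, and 945 or 758 without either LPS library. MIA against control in striatum after LPS gave 25 calls, 81 without the filter, 242 with DESeq2, 42 with the block, 1 with the set-aside library and 1 to 90 without 1 library. The same in cortex after LPS gave 0, 27 without the filter, 58 with DESeq2, 13 with the block and 89 without MIA replicate 3. The interaction gave 0 in both regions, 35 in cortex without MIA LPS replicate 3. Striatum against cortex gave 2, 14, 3 and 86 (MIA LPS, MIA saline, control LPS, control saline), 6, 62, 18 and 445 without the filter, 14, 100, 44 and 575 with DESeq2, 6, 31, 24 and 836 with the block within groups, and as few as 0, 4, 0 and 0 without 1 library. The cause of these shifts was not tested. With a prior count of 0.5, Clic4 came first among the genes most like Ptges (r = 0.86), and the third gene became Bend6 for Hpgds and Gpt2 for Ptger2. Depth limits Ptger2, with 0 to 39 counts per library. Ptges held 2 to 384 counts and varied widely within groups (20, 2 and 75 counts in control cortex saline).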
